A study of Drosophila melanogaster with 12 samples.

Results

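The genes described here lie in the distal part of chromosome arm 2L of Drosophila melanogaster, between the telomere and 4.2 Mb on dm3, and are listed under a CG number, the running identifier given to annotated genes that had no published name. A gene was taken when its symbol was CG followed only by digits, its midpoint lay on 2L below 4200000 and it had at least 10 reads in 3 or more of the 12 libraries. That rule kept 279 of the 282 CG genes in the interval, out of 13040 genes in the deposited tables. It compared no groups, but 1 of the 279, CG43815, reached 10 reads in heterozygous libraries and in no WT library, so it entered only through the groups where it is high. The 3 genes it left out, CG14342, CG15393 and CG15398, reached at most 10, 10 and 14 reads in any library. The last gene inside the bound, CG3714 (now Naprt), had log2 changes of -0.14, -0.14 and -0.15 in Het, Pat and Mat against WT, and the first CG gene outside it, CG3702, had -0.04, -0.03 and -0.02. RNA came from whole adults of the Canton S background at 10 to 11 days of age, as polyA-selected libraries, with 3 libraries in each of 4 groups. The Het flies carried the genotype AKHR +/- and had no obese parent, the Pat flies had the same genotype and an obese father, and the Mat flies had it with an obese mother. The WT flies were wild-type with no obese parent, so obese parents occur only together with the heterozygous genotype. The sources used here do not name the AKHR allele, the number of flies per library or their sex. The labels tie a library only to an experimental replicate, so a p-value reflects the spread among the libraries, which may be partly technical.

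AkhR is the receptor gene for adipokinetic hormone, which makes the insect fat body release stored lipid and glycogen. The gene lies on the same chromosome arm, further from the telomere than every gene described here. It is listed under the name GRHR (FBgn0025595, 2L:6711286-6716186, minus strand, dm3), with its midpoint 2513.7 kb beyond the 4.2 Mb bound. Its level was 79.0 ± 6.59 CPM in Het, 78.4 ± 4.08 in Pat and 79.8 ± 4.52 in Mat flies, against 82.3 ± 4.33 in WT flies (SD, n = 3 each), where CPM is the read count scaled to library size with TMM factors. Adjusted p was 0.804, 0.773 and 0.810 in Het, Pat and Mat against WT (edgeR), so the level of the targeted gene does not check the genotype labels. The sources used here do not say where in the gene the mutation lies.

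Libraries held 17212029 to 21370713 listed reads, and 12809 genes were tested. The 279 genes took 1.736 to 1.767% of the reads in the 9 heterozygous libraries, against 1.722 to 1.729% in the 3 WT libraries. Mat replicate 1 stood apart, with 6.383% of its reads in ribosomal protein genes against 5.475 to 5.852% in the other 11 libraries. Among the called genes, leaving it out ended the calls of CG5011 and CG43815 in Mat vs WT and made CG8837, CG31776 and CG16712 pass there (adjusted p 0.00149, 0.0111 and 0.00818). All 14 accessory gland markers and all 14 testis markers were measured, and the 6 of 16 ovary, egg shell and yolk markers that were listed summed to only 18.5 to 24.2 CPM per library. Accessory gland markers summed to 5738 to 6130 CPM in Het, 5826 to 5953 in Pat and 5592 to 6520 in Mat libraries, against 6559 to 7186 in WT libraries, and 1, 3 and 0 of the 14 passed the test as lower. Testis markers ran the other way, at 2454 to 2663, 2473 to 2621 and 2431 to 2908 CPM in Het, Pat and Mat libraries, against 2326 to 2421 in WT libraries, with none of the 14 past the threshold. Photoreceptor markers summed to 9440 to 9488, 9489 to 9728 and 9336 to 9546 CPM in Het, Pat and Mat libraries, against 10330 to 10870 in WT libraries, and 2, 0 and 0 of the 12 passed as lower, those in Het vs WT being Rh3 and Arr1. The part of these tissues in the gene changes below was not tested, and in whole flies fewer cells of a type and less RNA per cell cannot be told apart.

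Set against WT, heterozygous flies differed at a scatter of genes in both directions, and no called gene changed sign between the 3 groups. In Het vs WT, 19 of the 279 genes passed the threshold, 11 higher and 8 lower (6.81%), while 0.593% of all genes tested passed, 0.203% higher and 0.390% lower. Pat vs WT had 18, 10 higher and 8 lower (6.45%), against 0.523% of all genes, 0.156% higher and 0.367% lower. Mat vs WT had 15, 9 higher and 6 lower (5.38%), against 0.344% of all genes, 0.156% higher and 0.187% lower. A gene passed, or was called, at a Benjamini-Hochberg adjusted p under 0.05 over the 12809 genes in the quasi-likelihood test of edgeR. Without CG43815 the counts were 18, 17 and 14. The 3 comparisons share the WT libraries, so their calls are not independent. The median log2 change of the 279 genes was 0.00, -0.007 and 0.013 in Het, Pat and Mat against WT, beside -0.006, -0.005 and -0.009 over all genes tested. The median size of the change was 0.0975, 0.104 and 0.104 on the log2 scale, against 0.0704, 0.0700 and 0.0792 over all genes tested. At an unadjusted p under 0.05 there were 74, 77 and 75 of the 279 genes (26.5, 27.6 and 26.9%), where all genes gave 10.7% in Het, 10.5% in Pat and 12.1% in Mat vs WT. In 25 of the 279 genes (8.96%) all 9 heterozygous libraries lay above all 3 WT libraries and in another 25 (8.96%) all lay below, while these shares were 3.10% and 2.72% of all genes tested. With the replicate number as a block the called genes numbered 41, 35 and 28 in Het, Pat and Mat against WT, beside a background of 2.22%, 1.61% and 1.77% of all genes. Without WT replicate 1 the count in Mat vs WT was 8, and without Mat replicate 1 it was 16.

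**Figure D1:**
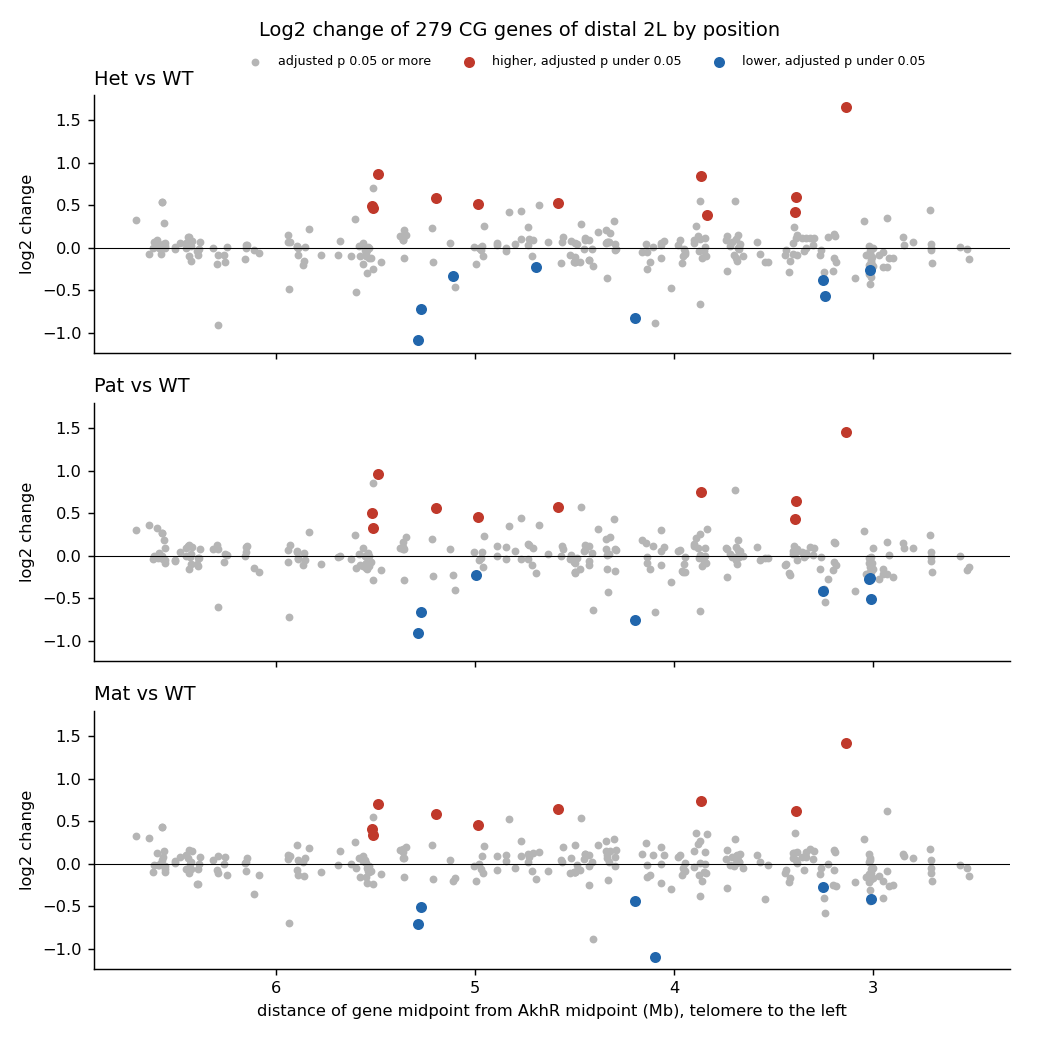
Log2 change (y axis) of each of the 279 CG genes of distal 2L against the distance of its midpoint from the AkhR midpoint in Mb (x axis, telomere on the left), in Het, Pat and Mat against WT from top to bottom; red and blue points passed an adjusted p of 0.05 as higher (11, 10 and 9) and lower (8, 8 and 6), grey points did not. Calls of both directions lie among many uncalled neighbours, and the 77 genes farthest from AkhR hold no call in any of the 3 panels. Over all genes tested 0.593, 0.523 and 0.344% passed.

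In all, 23 genes were called in at least 1 of the 3 comparisons, 11 higher and 12 lower, and each of the 23 had the same sign in all 3. Of these, 13 were called in all 3 (9 higher, 4 lower), 3 in exactly 2 and 7 in exactly 1. Shares over all genes tested are given above for each comparison alone, not for these combined counts. The changes were modest: the size of the mean log2 change over the 3 comparisons ran between 0.203 and 1.509 with a median of 0.477, it was under 0.5 in 12 genes, and 1 gene, CG43815, had a mean change of at least 1. In 10 of the 23, CG43815 among them, all 9 heterozygous libraries lay above the WT libraries and in 11 all lay below. Over all genes tested these shares were 3.10% and 2.72%. The 23 were chosen by their difference from the same WT libraries, so this separation is not separate support. The other 2, CG8837 and CG16712, each had a Mat library within the WT range. Fitted on the 6 Mat and WT libraries alone, CG5139, CG5011, CG43401, CG3528, CG3246, CG43815 and CG43145 were no longer called in Mat vs WT (adjusted p 0.109 to 0.213). The reference tables give most of the 23 no name or product; roles are stated below only where a name or synonym there gives one.

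Among the genes called higher in all 3 heterozygous groups, the largest fitted change belonged to CG43815 (2L:3576210-3576623, plus strand), a short and weakly expressed gene. It met the minimum of 10 reads only through the heterozygous libraries, so it had to be higher there to be among the 279, and its change is given as a description. Its level was 1.51, 0.949 and 1.21 CPM in Het, 1.00, 1.05 and 1.11 in Pat and 1.08, 1.09 and 0.913 in Mat libraries. In WT libraries the level was 0.411, 0.376 and 0.358 CPM. Every heterozygous library lay above every WT library. Log2 changes were 1.65 ± 0.29 in Het, 1.45 ± 0.29 in Pat and 1.42 ± 0.30 in Mat against WT (± SE of the fit here and below), with edgeR adjusted p of 0.00499, 0.0239 and 0.0393. It had 187 reads in the 9 heterozygous libraries and 22 in the 3 WT libraries, a ratio of 2.92 after scaling for depth. The 95% interval of 1.87 to 4.78 covers counting error only. Because of how the gene entered, neither its adjusted p nor this interval is support for a difference. The call in Pat vs WT was lost without any 1 of the 6 libraries (adjusted p 0.0764 to 0.117), and that in Mat vs WT without Mat replicate 1 or 2 or any WT replicate (0.0943 to 0.173). DESeq2 gave its adjusted p in Pat vs WT as NA and in Mat vs WT as 0.102.

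CG42329 (2L:1219318-1229802, plus strand) had 31.1, 38.0 and 30.1 CPM in Het, 33.0, 37.4 and 35.4 in Pat and 25.8, 31.2 and 31.5 in Mat libraries. WT libraries stood at 15.8, 20.2 and 18.3 CPM. The fitted levels were 1.83, 1.95 and 1.63 times that of WT in Het, Pat and Mat, and log2 changes were 0.87 ± 0.11 in Het, 0.96 ± 0.11 in Pat and 0.71 ± 0.11 in Mat (edgeR adjusted p 0.000427, 0.000167 and 0.00396). CG2983 (2L:2847632-2848997, plus strand), which the reference also lists as dC1GalT8, a name of the core 1 galactosyltransferases that extend mucin-type sugar chains on proteins, had 9.79, 10.0 and 9.71 CPM in Het, 8.74, 10.4 and 8.71 in Pat and 9.45, 10.0 and 7.99 in Mat libraries. Against these, WT libraries had 5.24, 6.51 and 4.75 CPM. Its log2 changes were 0.84 ± 0.12 in Het, 0.75 ± 0.12 in Pat and 0.74 ± 0.12 in Mat (edgeR adjusted p 0.000741, 0.00294 and 0.00396). In neither gene did a heterozygous library fall within the WT range. CG33282 (2L:3327903-3329792, plus strand) had 15.4, 13.7 and 14.9 CPM in Het, 15.5, 14.1 and 15.5 in Pat and 15.2, 13.6 and 15.6 in Mat libraries. Levels in WT libraries were 9.81, 9.14 and 9.96 CPM. It stood at 1.52, 1.56 and 1.53 times the WT level, with log2 changes of 0.60 ± 0.08 in Het, 0.64 ± 0.08 in Pat and 0.62 ± 0.08 in Mat and edgeR adjusted p of 0.000489, 0.000237 and 0.000429. The 3 heterozygous groups overlapped each other in CG33282 and none reached the WT range.

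CG18132 (2L:1516790-1517478, minus strand) had 26.5, 25.7 and 24.7 CPM in Het, 26.3, 26.3 and 23.1 in Pat and 28.5, 24.5 and 23.7 in Mat libraries. The 3 WT libraries gave 16.9, 17.5 and 17.0 CPM. Its WT libraries were close together and the lowest heterozygous library stood well above them, with log2 changes of 0.58 ± 0.08 in Het, 0.56 ± 0.08 in Pat and 0.58 ± 0.08 in Mat (edgeR adjusted p 0.000339, 0.000570 and 0.000429). CG4259 (2L:2128215-2129211, minus strand), also listed as SPH173, a serine protease homologue by that name, had 8.72, 9.88 and 8.50 CPM in Het, 9.26, 9.28 and 9.31 in Pat and 9.96, 10.2 and 9.25 in Mat libraries. In WT flies it had 6.06, 6.13 and 6.59 CPM. Log2 changes were 0.53 ± 0.09 in Het, 0.57 ± 0.09 in Pat and 0.64 ± 0.09 in Mat (edgeR adjusted p 0.00594, 0.00361 and 0.000984), and without Het replicate 2, its highest Het library, the call in Het vs WT was lost at an adjusted p of 0.0645. CG31937 (2L:1729887-1731070, plus strand) was the most abundant of the genes higher in all 3 comparisons, with 93.9 FPKM on average over the 12 libraries, a unit that scales fragment counts by transcript length and depth. Its level was 121, 127 and 121 CPM in Het, 115, 117 and 120.3 in Pat and 122, 111 and 121 in Mat libraries. The WT libraries had 80.9, 86.9 and 89.6 CPM. Log2 changes were 0.52 ± 0.05 in Het, 0.45 ± 0.05 in Pat and 0.46 ± 0.05 in Mat (edgeR adjusted p 1.07e-05, 7.78e-05 and 6.80e-05), and no group's range touched that of WT.

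CG5139 (2L:1198465-1199204, minus strand) and CG5011 (2L:1200778-1201220, plus strand) lie 1573 bp apart on opposite strands and were both higher. CG5139 had 57.6, 52.4 and 55.2 CPM in Het, 58.7, 55.6 and 51.9 in Pat and 59.1, 49.1 and 47.0 in Mat libraries. In WT libraries the level was 41.0, 39.8 and 36.6 CPM. For CG5011 the levels were 37.9, 36.3 and 37.1 CPM in Het, 33.4, 34.8 and 32.1 in Pat and 36.1, 33.0 and 32.1 in Mat libraries. WT libraries stood at 24.0, 28.4 and 27.7 CPM. In both genes the 9 heterozygous libraries lay above the WT libraries. The log2 changes of CG5139 were 0.49 ± 0.08 in Het, 0.50 ± 0.08 in Pat and 0.40 ± 0.08 in Mat (edgeR adjusted p 0.00213, 0.00195 and 0.0213), and its call in Mat vs WT was lost without any 1 WT replicate (adjusted p 0.0528 to 0.118). Those of CG5011 were 0.47 ± 0.07 in Het, 0.32 ± 0.07 in Pat and 0.34 ± 0.07 in Mat (edgeR adjusted p 0.000894, 0.0334 and 0.0328), and its call was lost in Pat vs WT without any 1 of the 6 libraries (0.0520 to 0.184) and in Mat vs WT without Mat replicate 1 or 2 or WT replicate 1 or 3 (0.0600 to 0.182).

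**Figure D2:**
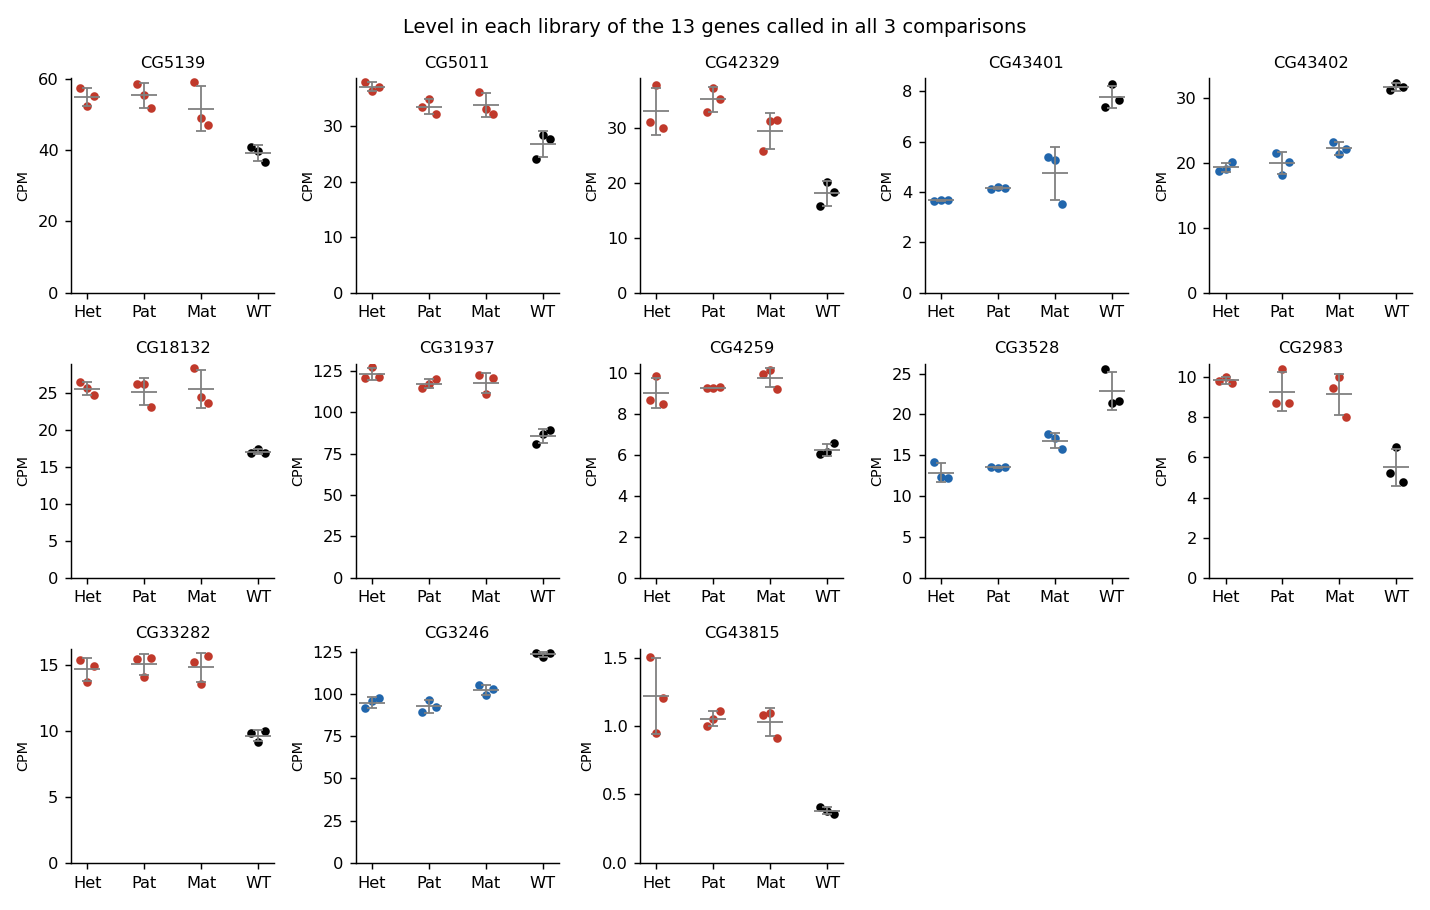
Level in CPM (y axis, from 0) in each library of the 13 genes called in all 3 comparisons, ordered from the telomere; dots are the 3 libraries of Het, Pat, Mat and WT from left to right, red where the heterozygous groups were higher and blue where lower, and bars are the mean ± SD. In each panel the 9 heterozygous libraries lie on the same side of the 3 WT libraries, a separation that follows in part from how the genes were chosen.

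The 4 genes lower in all 3 comparisons were CG43401, CG43402, CG3528 and CG3246. CG43401 (2L:1428510-1428981, plus strand) fell the most in Het flies, to 0.473 of the WT level. CG43401 had 3.66, 3.69 and 3.67 CPM in Het, 4.11, 4.201 and 4.17 in Pat and 5.41, 5.27 and 3.54 in Mat libraries. Against these, WT libraries had 7.40, 8.28 and 7.66 CPM. Its log2 changes were -1.08 ± 0.13 in Het, -0.90 ± 0.13 in Pat and -0.71 ± 0.13 in Mat (edgeR adjusted p 0.000155, 0.000746 and 0.00943), and the call in Mat vs WT was lost without WT replicate 2 (0.0810). CG43402 (2L:1442726-1443316, plus strand), the next gene of the set 13.7 kb away, had 18.8, 19.1 and 20.2 CPM in Het, 21.6, 18.1 and 20.2 in Pat and 23.3, 21.4 and 22.1 in Mat libraries. Levels in WT libraries were 31.2, 32.4 and 31.7 CPM. Log2 changes were -0.72 ± 0.07 in Het, -0.67 ± 0.07 in Pat and -0.51 ± 0.07 in Mat, with edgeR adjusted p of 6.76e-06, 2.06e-05 and 0.000417. Both of these neighbours were lower in every heterozygous library than in any WT library, and their mean level was lowest in Het and highest, of the heterozygous groups, in Mat. CG3528 (2L:2517102-2518037, minus strand) followed the same order, with 14.2, 12.3 and 12.2 CPM in Het, 13.6, 13.4 and 13.6 in Pat and 17.6, 17.1 and 15.8 in Mat libraries. The 3 WT libraries gave 25.5, 21.4 and 21.6 CPM. Its log2 changes were -0.83 ± 0.08 in Het, -0.76 ± 0.08 in Pat and -0.44 ± 0.08 in Mat (edgeR adjusted p 1.07e-05, 4.54e-05 and 0.0123), and the call in Mat vs WT was lost without Mat replicate 2 or WT replicate 1 (0.0515 to 0.128). The mean level of CG3246 (2L:3460315-3461975, minus strand) was lowest in Pat, and its libraries read 91.4, 95.8 and 97.3 CPM in Het, 89.1, 96.6 and 92.4 in Pat and 105, 99.2 and 103 in Mat libraries. In WT flies it had 124, 122 and 124 CPM. Log2 changes were -0.38 ± 0.05 in Het, -0.41 ± 0.05 in Pat and -0.27 ± 0.05 in Mat (edgeR adjusted p 0.000170, 7.27e-05 and 0.00753), and the call in Mat vs WT was lost without Mat replicate 2 or WT replicate 1 (0.0641 to 0.0708). CG3246 overlaps sec5 on the opposite strand, an exocyst subunit that tethers secretory vesicles, whose level was 30.2 ± 2.33 CPM in Het, 30.0 ± 0.501 in Pat and 30.2 ± 2.44 in Mat, against 30.5 ± 0.451 in WT (SD, n = 3 each). The gene sec5 was not called (edgeR adjusted p 0.967, 0.941 and 0.942).

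The other 10 genes were called in 1 or 2 comparisons only, and 8 of them were lower and 2 higher. Those named here outside the rule stated in the methods were chosen after their values were seen. The most abundant was CG16712 (2L:3696240-3696661, minus strand), now IM33, an immune-induced peptide of the haemolymph, at 1250.0 FPKM on average, the highest level of all 279 genes. It had 428, 408 and 436 CPM in Het, 427, 426 and 422 in Pat and 499.7, 414 and 445 in Mat libraries. The WT libraries had 517, 498 and 513 CPM. It fell in Het and Pat flies, with log2 changes of -0.26 ± 0.06 in Het, -0.26 ± 0.06 in Pat and -0.17 ± 0.06 in Mat and edgeR adjusted p of 0.0309, 0.0358 and 0.236, while Mat replicate 1 lay among the WT libraries and without it the gene passed in Mat vs WT (0.00818). Both calls were lost without any 1 of the 6 libraries of their comparison (0.0659 to 0.167 in Het and 0.110 to 0.208 in Pat vs WT) and with no scaling factors.

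CG18317 (2L:1716244-1724388, minus strand), now Rim2, a carrier of pyrimidine nucleotides across the inner mitochondrial membrane, had 108, 104 and 109 CPM in Het, 105, 104 and 107 in Pat and 104, 108 and 108 in Mat libraries. In WT libraries the level was 124, 124 and 119 CPM. It was called in Pat vs WT only, with log2 changes of -0.19 ± 0.04 in Het, -0.22 ± 0.04 in Pat and -0.20 ± 0.04 in Mat and edgeR adjusted p of 0.0587, 0.0242 and 0.0590. This call was lost without any 1 of the 6 libraries (0.0567 to 0.164) and with no scaling factors. With the replicate block its adjusted p was 0.0143, 0.00532 and 0.0147. CG31935 (2L:1594822-1611125, minus strand), now Rab3GAP1, a subunit of a complex that acts on Rab GTPases in membrane traffic, had 34.8, 33.2 and 35.1 CPM in Het, 37.1, 35.5 and 38.4 in Pat and 33.7, 40.5 and 39.0 in Mat libraries. WT libraries stood at 44.7, 42.3 and 43.0 CPM. It was called in Het vs WT, with log2 changes of -0.33 ± 0.06 in Het, -0.23 ± 0.06 in Pat and -0.20 ± 0.06 in Mat and edgeR adjusted p of 0.0149, 0.167 and 0.227, and the call was lost without Het replicate 1 or 2 or WT replicate 1 or 2 (0.0506 to 0.111). In both genes every heterozygous library lay below the WT libraries. CG31935 overlaps haf on the opposite strand, which had 3.87 ± 0.512 CPM in Het, 3.79 ± 0.358 in Pat and 3.85 ± 1.26 in Mat, against 3.62 ± 0.270 in WT (SD, n = 3 each) and was not called. The sources used here do not state a strand setting for the counting, and the reads of this pair cannot be told apart. CG31950 (2L:2878344-2879001, plus strand), now Sbat and also listed as Gem7, a Gemin protein of the complex that assembles spliceosomal ribonucleoproteins, had 22.0, 20.5 and 20.0 CPM in Het, 19.2, 21.2 and 18.8 in Pat and 21.6, 19.8 and 19.1 in Mat libraries. Against these, WT libraries had 14.9, 16.2 and 16.6 CPM. It rose in Het flies, with log2 changes of 0.39 ± 0.08 in Het, 0.31 ± 0.08 in Pat and 0.34 ± 0.08 in Mat and edgeR adjusted p of 0.0137, 0.0796 and 0.0557, and the call was lost without Het replicate 1 or WT replicate 1 or 2 (0.0516 to 0.111). With the replicate block its adjusted p in Pat and Mat vs WT was 0.0360 and 0.0225, and without Mat replicate 3 it passed in Mat vs WT (0.0266).

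CG31776 (2L:3470182-3472365, plus strand), also listed as dppGalNAcT10, a name of the enzymes that attach the first sugar of mucin-type chains, had 5.49, 4.34 and 4.99 CPM in Het, 5.26, 4.96 and 4.82 in Pat and 5.69, 5.08 and 3.83 in Mat libraries. Levels in WT libraries were 7.30, 7.37 and 7.20 CPM. Its log2 changes were -0.56 ± 0.13 in Het, -0.54 ± 0.13 in Pat and -0.58 ± 0.13 in Mat (edgeR adjusted p 0.0433, 0.0613 and 0.0542), so that only Het vs WT passed, and not without any 1 of the 6 libraries (0.0719 to 0.226). Without Mat replicate 1 it passed in Mat vs WT (0.0111). DESeq2 gave 0.0643, limma-trend 0.0648 and edgeR with no scaling factors 0.0620 for that comparison. CG31776 had an adjusted p of 0.0217 in Pat and 0.0164 in Mat vs WT with the replicate block. CG8837 (2L:3320255-3323141, plus strand) had 31.9, 33.6 and 34.9 CPM in Het, 33.2, 34.8 and 33.1 in Pat and 27.1, 32.8 and 36.2 in Mat libraries. The 3 WT libraries gave 23.8, 23.6 and 27.5 CPM. It rose in Het and Pat flies, with log2 changes of 0.42 ± 0.09 in Het, 0.43 ± 0.09 in Pat and 0.36 ± 0.09 in Mat and edgeR adjusted p of 0.0235, 0.0227 and 0.0904. Mat replicate 1 lay within the WT range, and without it the gene passed in Mat vs WT (0.00149). Leaving out a Het library or WT replicate 1 or 2 ended the call in Het vs WT (0.0594 to 0.189). Leaving out a Pat library or WT replicate 1 or 2 ended that in Pat vs WT (0.0844 to 0.173). With the replicate block adjusted p in Mat vs WT was 0.0134. CG43403 (2L:2620187-2620782, plus strand) had 3.66, 2.80 and 1.92 CPM in Het, 3.10, 4.26 and 2.55 in Pat and 2.85, 2.49 and 1.88 in Mat libraries. In WT flies it had 5.09, 6.02 and 4.39 CPM. It was called in Mat vs WT at a log2 change of -1.10 ± 0.22 (edgeR adjusted p 0.0370, 0.0550 with limma-trend). The gene passed in Het vs WT without Het replicate 1 (0.0477). The call in Mat vs WT was lost without Mat replicate 2 or 3 or WT replicate 1 or 2 (0.0635 to 0.191). In Het and Pat vs WT its log2 changes were -0.88 ± 0.21 and -0.66 ± 0.21. CG43403 had an adjusted p of 0.00323 in Het and 0.0288 in Pat vs WT with the replicate block.

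CG4238 (2L:2009859-2030536, plus strand) had 53.6, 51.1 and 53.0 CPM in Het, 54.2, 52.7 and 53.6 in Pat and 53.4, 54.1 and 55.3 in Mat libraries. The WT libraries had 63.0, 61.4 and 60.1 CPM. It was called in Het vs WT at a log2 change of -0.23 ± 0.05 (edgeR adjusted p 0.0312). That call was lost without any 1 of the 6 libraries (0.0669 to 0.167) and with no scaling factors. CG16704 (2L:3692138-3692588, minus strand) had 43.5, 40.1 and 44.0 CPM in Het, 39.9, 40.5 and 41.0 in Pat and 44.4, 39.7 and 42.2 in Mat libraries. In WT libraries the level was 48.9, 50.5 and 47.0 CPM. It was called in Pat vs WT at -0.27 ± 0.06 (edgeR adjusted p 0.0343), a call also lost without any 1 of the 6 libraries (0.0674 to 0.236) and with no scaling factors. CG43145 (2L:3701848-3702131, plus strand) had 13.0, 13.4 and 14.4 CPM in Het, 11.7, 11.96 and 12.9 in Pat and 14.1, 13.6 and 11.3 in Mat libraries. WT libraries stood at 16.7, 18.1 and 17.1 CPM. Its log2 changes were -0.34 ± 0.08 in Het, -0.50 ± 0.08 in Pat and -0.41 ± 0.08 in Mat (edgeR adjusted p 0.0620, 0.00361 and 0.0288). Its call in Mat vs WT was lost without Mat replicate 2 or 3 or any 1 WT replicate (0.0642 to 0.188). CG4238 had an adjusted p of 0.0237 in Pat and 0.0458 in Mat vs WT with the replicate block. CG16704 had an adjusted p of 0.0493 in Mat vs WT with the replicate block. CG43145 had an adjusted p of 0.0314 in Het vs WT with the replicate block. In these 3 genes the heterozygous libraries all lay below the WT libraries.

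**Figure D3:**
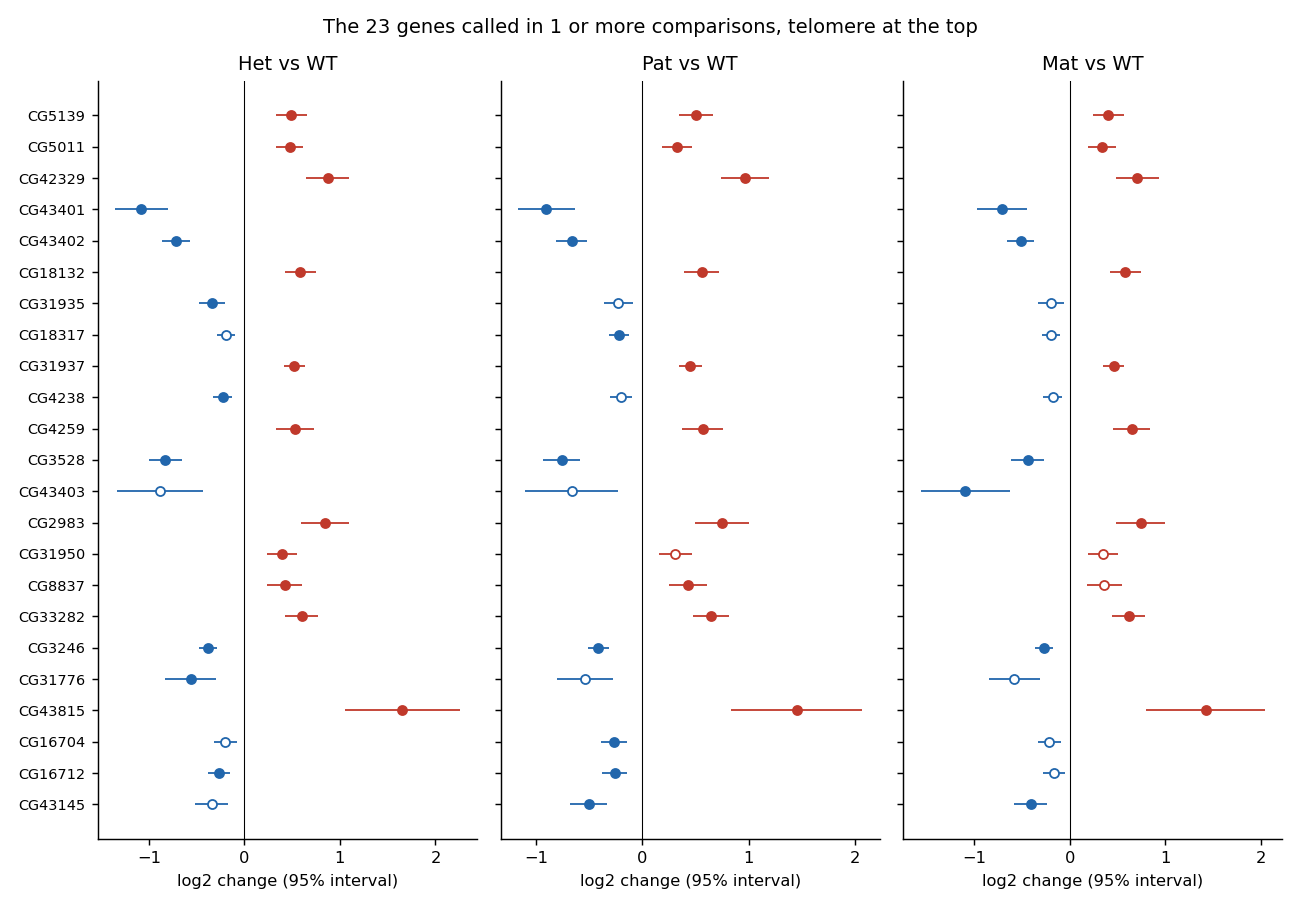
Log2 change (x axis) with its 95% interval for the 23 genes called in at least 1 comparison, ordered from the telomere at the top, in Het, Pat and Mat against WT from left to right; filled points passed an adjusted p of 0.05, open points did not, red is higher and blue lower. All 23 genes keep one sign across the panels, and the 11 higher and 12 lower genes are interspersed along the arm.

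The calls were spread unevenly along the arm, described here in 7 windows of 0.6 Mb numbered away from the telomere. Window 1, nearest the telomere, held 44 genes and no call in any comparison (unadjusted p under 0.05 in 6, 4 and 7 of them in Het, Pat and Mat against WT). Over all genes tested 0.593, 0.523 and 0.344% were called in these comparisons, so a window of this size without a call is close to that share. With the replicate block 3, 1 and 2 of the 44 were called, against 2.22, 1.61 and 1.77% of all genes. Window 2 held 35 genes and 1 called (2.86% in each comparison), CG5139, which lies at its inner edge. Window 3, at 1.2 to 1.8 Mb, held 27 genes, of which 8 were called in at least 1 comparison and 6 in all 3, with 4 higher and 4 lower. In Het, Pat and Mat against WT taken singly, 7, 7 and 6 of the 27 were called (25.9, 25.9 and 22.2%). For counts combined over the 3 comparisons no share over all genes tested is given. Windows 4, 5 and 6 held 46, 43 and 47 genes, with 2, 4 and 5 called in at least 1 comparison. The shares in these windows were 4.35, 6.98 and 10.6% in Het vs WT. They were 2.17, 4.65 and 8.51% in Pat vs WT and 2.17, 6.98 and 6.38% in Mat vs WT. Window 7, nearest AkhR, held 37 genes, and the 3 called ones, CG16704, CG16712 and CG43145, were all lower. In Het, Pat and Mat against WT taken singly, 1, 3 and 1 of the 37 were called (2.7, 8.11 and 2.7%). All 23 called genes lay between 1198465 and 3702131, with 77 of the 279 genes to the left of that span, 23 to its right and 179 within. Median standard errors were 0.0741 in window 1, 0.0736 in window 3 and 0.0849 in window 7 in Het vs WT. The share of genes at an unadjusted p under 0.05 was 13.6, 9.09 and 15.9% in window 1 in Het, Pat and Mat against WT, 51.9, 59.3 and 48.1% in window 3, and 40.5% in each comparison in window 7. Over all genes tested it was 10.7, 10.5 and 12.1%. In window 3 the changes went both ways, with a median log2 change of 0.021, 0.047 and 0.049 and a median size of 0.171, 0.220 and 0.170. In window 7 they leaned down: the median log2 change was -0.086, -0.132 and -0.108, and 10, 10 and 11 of the 37 genes were above 0. Over all genes tested 6136, 6133 and 5972 of 12809 were above 0. The 3 called genes and 11 of the 37 in all lie in the 9.99 kb from CG16704 to CG43145. Of those 11, 7 were below 0 in all 3 comparisons, which share the WT libraries, and none was above 0 in all 3. Position was described and not tested.

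**Figure D4:**
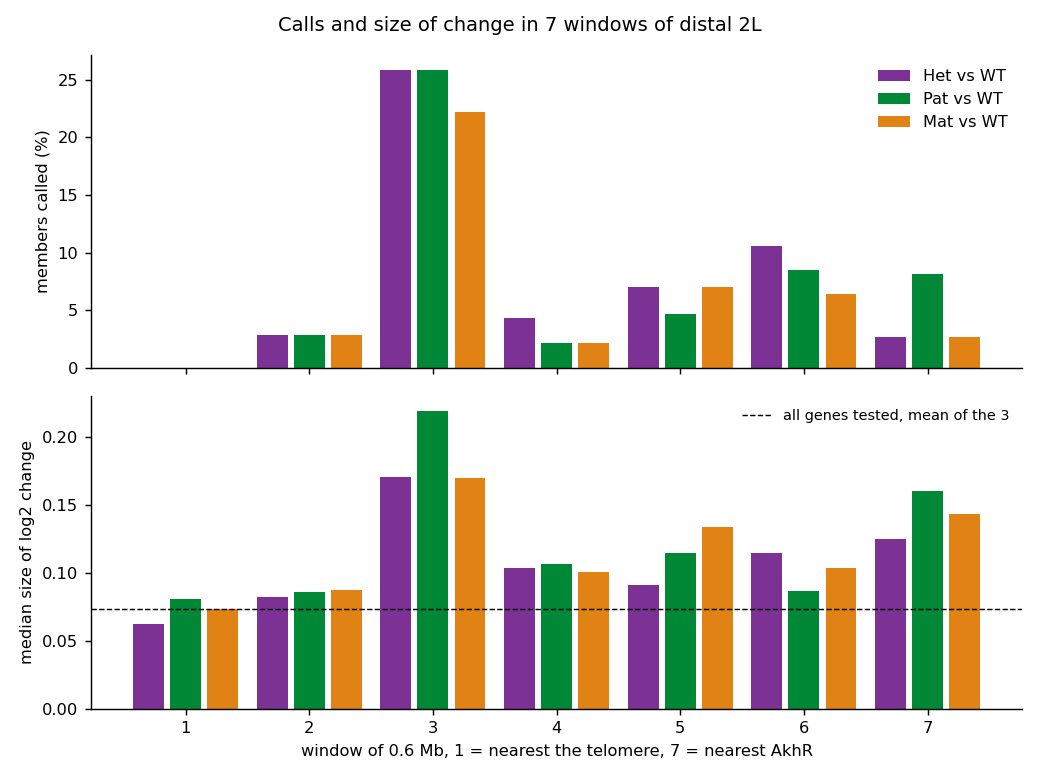
Share of genes called at an adjusted p of 0.05 (upper, percent) and median size of the log2 change (lower) in 7 windows of 0.6 Mb, from the telomere (1) towards AkhR (7), in Het, Pat and Mat against WT; the dashed line is the mean over the 3 comparisons of the median size among all genes tested. Window 3 has the tallest bars in both panels, and window 1 has no call. Over all genes tested 0.593, 0.523 and 0.344% were called.

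In window 1 the gene with the lowest ranks of p was CG11023, the first of the 279 along the arm (2L:7529-9484) and now named CR11023, the form of a gene without a protein product. It had 35.5, 29.7 and 31.4 CPM in Het, 34.2, 32.3 and 28.8 in Pat and 34.7, 31.8 and 30.7 in Mat libraries. Against these, WT libraries had 27.0, 26.1 and 24.1 CPM. The heterozygous and WT libraries did not overlap. Its log2 changes were 0.32 ± 0.08 in Het, 0.30 ± 0.08 in Pat and 0.33 ± 0.08 in Mat, and edgeR adjusted p was 0.0765, 0.124 and 0.0904 without the replicate block and 0.00534, 0.00932 and 0.00538 with it. The block called 24 further genes in at least 1 comparison and kept all 23, giving 47 (23 higher, 24 lower), 24 of them in all 3 comparisons. For these combined counts no share over all genes tested is given. Of the genes called with the block, 6 lay to the left of the span given above and 1 to its right. Among those to the left, CG31976 and CG31975 share an interval (2L:138384-140992) and have the same values, so the same reads count for both. The genes named next were chosen after their values were seen. CG31690, now Tmtc1, named after a family of O-mannosyltransferases, had log2 changes of -0.47 ± 0.11 in Het, -0.31 ± 0.11 in Pat and -0.29 ± 0.11 in Mat, with an adjusted p of 0.0523 in Het vs WT that was 0.00847 with the block. CG33123, now LeuRS, the enzyme that charges leucine tRNA, had -0.27 ± 0.06 in Het, -0.17 ± 0.06 in Pat and -0.24 ± 0.06 in Mat, with adjusted p of 0.0586 and 0.120 in Het and Mat vs WT that were 0.0123 and 0.0293 with the block. For CG42463, now Sfp24Bd, a seminal fluid protein, the changes were 0.31 ± 0.09 in Het, 0.29 ± 0.09 in Pat and 0.29 ± 0.09 in Mat, and adjusted p in Het vs WT was 0.152 and 0.0357 with the block. CG42463 overlaps CG34340, and reads of the pair cannot be told apart.

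Neighbouring genes sometimes moved together and sometimes did not. Of the 22 pairs of called genes next to each other along the arm, 11 had opposite directions. In 6 pairs the genes lay within 10000 bp, and 5 of these had the same direction: CG5139 with CG5011 and CG8837 with CG33282, both higher, and CG3246 with CG31776, CG16704 with CG16712 and CG16712 with CG43145, all lower. The exception was CG18317, lower, and CG31937, higher, 5498 bp apart. The run of 5 genes that begins with CG5139 and ends with CG42329 spans 31.3 kb, and 4 of them were above 0 in all 3 comparisons. CG43349 (2L:1200205-1200580, plus strand), which lies between CG5139 and CG5011, went the other way with log2 changes of -0.25 ± 0.10 in Het, -0.29 ± 0.10 in Pat and -0.24 ± 0.10 in Mat and was not called (edgeR adjusted p 0.422, 0.338 and 0.391; 0.0442, 0.0222 and 0.0534 with the replicate block). The run of 11 genes that begins with CG16704 and ends with CG43145 spans 9.99 kb; 7 of them were below 0 in all 3 comparisons and none above 0 in all 3. The 3 genes from CG8837 to CG33282, over 9.54 kb, were all above 0 in all 3 comparisons. Of the 5 from CG43401 to CG18132, over 89.0 kb, 2 were above 0 and 3 below 0 in all 3. These runs were chosen after their values were seen. The 3 comparisons share the WT libraries, and the share of all genes that kept 1 sign in all 3 is not given.

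The 3 heterozygous groups gave no call against each other in these genes. None of the 279 was called in Pat vs Het, where 0.00781% of all genes were, and 11 had an unadjusted p under 0.05 (3.94%, against 2.11% of all genes). Mat vs Het also had none, against 0.0156% of all genes, with 16 at an unadjusted p under 0.05 (5.73%, against 4.15%). Mat vs Pat had none, against 0.0156%, with 8 at an unadjusted p under 0.05 (2.87%, against 2.75%). The replicate block gave 0 calls in all of these comparisons, and DESeq2 and limma-trend gave 0 in Pat vs Het and Mat vs Het. The median size of the log2 change was 0.0518 in Pat vs Het, 0.0595 for Mat vs Het and 0.0527 for Mat vs Pat, against 0.0449, 0.0581 and 0.0549 over all genes tested. The smallest p in Pat vs Het belonged to CG11374 (2L:76348-77783, plus strand), which had 3.34, 3.25 and 3.51 CPM in Het, 4.84, 4.61 and 4.17 in Pat and 4.67, 4.83 and 3.54 in Mat libraries. Levels in WT libraries were 3.65, 3.39 and 3.52 CPM. Its log2 change was 0.43 ± 0.14, with a 95% interval of 0.15 to 0.71 and an edgeR adjusted p of 1.0. CG3528 had the smallest p in the other two. Its log2 change was 0.38 ± 0.09 in Mat vs Het (95% interval 0.20 to 0.56, edgeR adjusted p 0.712). In Mat vs Pat it was 0.31 ± 0.09 (95% interval 0.13 to 0.49, edgeR adjusted p 0.9999). Every Mat library of CG3528 lay above every Het and Pat library and below every WT library, and a median standard error of about 0.078 limits what can be seen between these groups.

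A name in place of the number is now given by the reference for 60 of the 279 genes. Of these 60, 4 were called in at least 1 of the 3 comparisons, and of the 219 without a name 19 were. For these combined counts no share over all genes tested is given, and named and unnamed genes were not compared by a test. The named genes below were chosen by product after their values were seen, and none was called in any of the 3 comparisons. Lipid synthesis was represented by CG3523, now FASN1, the fatty acid synthase that makes fatty acids from malonyl-CoA, at 243 FPKM on average, with log2 changes of -0.10, 0.00 and -0.05 in Het, Pat and Mat against WT. CG15400, now G6P, the glucose-6-phosphatase that frees glucose from its phosphate, had 12.7 FPKM and log2 changes of 0.05, 0.12 and -0.03. CG2789, now Tspo, a protein of the outer mitochondrial membrane, had 137 FPKM and -0.13, -0.01 and 0.01. None of these metabolic genes had a log2 change beyond 0.13 in size. The complex I subunits of the respiratory chain were CG3214 (ND-B17.2), CG12400 (ND-B14.5B) and CG11455 (ND-15), at 282, 158 and 113 FPKM. Their log2 changes were -0.04, -0.08 and -0.02 for ND-B17.2, -0.07, -0.05 and 0.02 for ND-B14.5B and -0.07, -0.02 and 0.00 for ND-15, whose interval overlaps other listed genes. The splicing factors CG2807 (Sf3b1) and CG3605 (Sf3b2) had log2 changes of 0.03, 0.12 and 0.07 and of -0.12, -0.05 and 0.01. CG17259 (SerRS), which charges serine tRNA, had -0.01, 0.07 and 0.02.

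Length, strand and overlap were not used in choosing the genes. The median summed exon length of the 23 called genes was 883 bp, against 1435 bp in the 256 genes not called and 1763 bp over all genes tested. Under 1000 bp were 13 of the 23 (56.5%), against 85 of the 256 (33.2%). The median level was 18.7 FPKM in the called genes and 14.8 FPKM in those not called. On the plus strand lay 14 of the 23 called genes and 141 of the 279. Of the 279 genes 112 overlap another listed gene, and 2 of the 23 called genes do; 6 of the 279 have the same counts as another listed gene. Among the 167 without an overlap 17, 17 and 14 were called in Het, Pat and Mat against WT (10.2, 10.2 and 8.38%). Among the 112 with one 2, 1 and 1 were (1.79, 0.893 and 0.893%). Over all genes tested the shares were 0.593, 0.523 and 0.344%. Length, level and overlap were not separated from each other, and these differences were not tested.

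Set beside the rest of the genome, CG genes of the same arm beyond 4.2 Mb had 17, 14 and 8 of 1041 called in the same 3 comparisons (1.63, 1.34 and 0.768%), and CG genes off 2L had 14, 8 and 9 of 5503 (0.254, 0.145 and 0.164%). Off 2L 1, 0 and 1 of these calls were higher and 13, 8 and 8 lower, beside 11, 10 and 9 higher and 8, 8 and 6 lower in the CG genes of distal 2L. Within the same interval, genes with other names, CR genes apart, had 6, 7 and 2 of 202 called (2.97, 3.47 and 0.99%). The CR genes, listed as not coding for protein, had 2, 2 and 2 of 17 (11.8% in each comparison). These shares were 6.81, 6.45 and 5.38% in the CG genes of distal 2L and 0.593, 0.523 and 0.344% over all genes tested. The difference between these lists was not tested.

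The authors' deposited table also gives, for some genes, the exon with the most altered usage. For CG8837 the authors' deposited table lists an exon at 2L:3320255-3320445 with a log2 ratio of -1.10 in Het vs WT, and another at 2L:3320518-3320647 with -1.15 in Pat and -1.06 in Mat vs WT, all negative where the fitted log2 change of the gene was positive. Read as minus 10 times log10, a scale not tested for exons, the scores in the authors' deposited table correspond to adjusted p of 0.0593, 0.00295 and 1.28e-05. For CG18131 the authors' deposited table lists log2 ratios of 1.03 in Het and 1.29 in Mat vs WT at an exon, 2L:1500409-1500760, with adjusted p of 1.0 and 0.409 on that scale. The exons listed there for CG3625, CG4341, CG4238 and CG3326 had an adjusted p of 1.0 on that scale.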

How the data were processed

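PolyA RNA of whole flies was sequenced in 12 libraries, 3 per group. Per the file headers, the deposited tables hold raw counts, FPKM, a log2 ratio and a score for the adjusted p-value of each gene on the D_melanogaster_Apr_2006 assembly. Per the submitters' processing notes, dm3, Novoalign and DESeq were used. The sources used here state no version, annotation or strand setting, and reads of overlapping genes may be shared. The deposited score was close to minus 10 times log10 of an adjusted p recomputed for genes (median ratios 0.9 to 1.03).

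The deposited tables, 5 in all, were joined by gene ID: 12982 of 13040 genes had counts in all 12 libraries, 58 were left out, and shared libraries had 0 disagreements. Starts count from 1. Names were matched to reference tables by gene ID for 272 of the 279 genes and by locus tag for 5. The reference is another build, so none of its coordinates are used; no sequence tables or genome were used.

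Counts were fitted with edgeR 4.0.16 (R 4.3.3): filterByExpr (minimum count 10, total 15), TMM, robust quasi-likelihood, group means over 12 libraries, Benjamini-Hochberg over 12809 genes, threshold 0.05. The biological coefficient of variation was 0.0591. On simulated counts for Het vs WT with 200 of 12775 genes changed, 77.6% were recovered at a log2 change of 0.5, 95.5% at 1 and 98.5% at 2, and 8 of 189 calls were unchanged genes. The changed genes had a mean of at least 10 reads, and no effect of the replicate number was simulated. Recovery of changes under 0.5 was not simulated. Depth was 17212029 to 21370713 reads. FPKM values served for levels only. Alternatives were RLE or no scaling, other filters, DESeq2 1.42.0, limma-trend 3.58.1, the replicate block, only the 6 libraries compared, and leaving out each library.

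The series design gives 1 set of samples per experimental replicate, and the replicate number is read from the titles. Across genes, same-numbered libraries deviated from their group means together, with a mean r of 0.119 (range -0.0273 to 0.221, 11 of 18 pairs above 0.1), against -0.0592 for other pairs. Deviations from a group mean cancel out within the group. The value for other pairs is therefore largely fixed by that for same-numbered pairs and is not separate evidence.

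Members and lists were chosen with earlier results of these data known. Named by rule were genes called the same way in all 3 comparisons with WT, the 6 largest rises and 6 largest falls by mean change among called genes with at least 1 CPM, the gene with the lowest ranks of p in each window, and the smallest p among heterozygous groups. Marker lists of muscle (12 of 12 genes measured) and of fat body (4 of 8 measured) had no called gene.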

Additional observations from a re-analysis of the deposited data

How the results depend on the processing

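Among the CG genes of distal 2L, 19 were called in Het, 18 in Pat and 15 in Mat vs WT. With the replicate block, which pairs libraries by number, they numbered 41, 35 and 28, and with only the 6 libraries compared 33, 29 and 8. The fit on 6 libraries estimates the spread from those alone; the cause of its difference was not tested. DESeq2 gave 25, 23 and 20, limma-trend 18, 18 and 14, RLE factors 19, 18 and 16, no scaling 17, 16 and 16, and the other filters and bounds 19, 18 and 15. Leaving out 1 library gave 13 to 17 in Het, 12 to 13 in Pat and 8 to 16 in Mat vs WT, the lowest being without WT replicate 1. Calls kept in all 6 such fits numbered 12 of 19, 12 of 18 and 7 of 15. The median log2 change of 0.00 in Het, -0.007 in Pat and 0.013 in Mat vs WT was 0.02, 0.013 and 0.029 with no scaling. With 1 library left out it ran between -0.006 and 0.009, between -0.011 and 0.008 and between -0.002 and 0.025, the -0.002 in Mat vs WT being without Mat replicate 1, so the sign of these medians is not fixed. None of the 75 gene results recomputed under these settings, those of the 23 called genes among them, changed direction; the other genes named were not recomputed. A large fitted change did not always give a call. CG43403, at 1.92 to 3.66 CPM in Het and 4.39 to 6.02 CPM in WT libraries, was not called in Het vs WT at -0.88 ± 0.21. CG43401, at 3.66 to 3.69 CPM in Het libraries, was called there at -1.08 ± 0.13. The part of abundance in the calls was not tested.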
